A study of Mus musculus with 11 samples.

Results

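The smooth muscle contractile genes are 10 genes that code for the contractile apparatus of smooth muscle cells and for a coactivator of that programme: Myocd, Myh11, Myl9, Mylk, Acta2, Tagln, Cnn1, Tpm2, Lmod1 and Smtn. They were chosen by name, and each was found by its Ensembl identifier among the 22608 genes of the heart RNA-seq table. Ventricles of 11 male mice were sequenced: 2 wild-type mice given vehicle (WT VEH), 3 wild-type mice given JZL184 (WT JZL184), 3 complete deletion mice given vehicle (CD VEH) and 3 complete deletion mice given JZL184 (CD JZL184). JZL184 blocks monoacylglycerol lipase, which breaks down the endocannabinoid 2-arachidonoylglycerol. It was injected intraperitoneally at 8 mg/kg a day for 10 days, and the sample titles and the study's methods give vehicle for the other mice, which the treatment field of the labels calls untreated. CD mice are heterozygous for a constitutive deletion on chromosome 5 that matches the region lost in Williams-Beuren syndrome, so all cells of the heart carry it, and the WT mice were their littermates. All mice shared a C57BL/6J background, after 9 generations of backcrossing, and were 8 to 16 weeks old. None of the 10 genes lies on chromosome 5: they lie on chromosomes 1, 2, 4, 9, 11, 16 and 19.

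Smooth muscle contracts when calcium and calmodulin activate myosin light chain kinase, which phosphorylates the regulatory light chain of smooth muscle myosin and lets the heavy chain pull on actin filaments. Calponin, transgelin, tropomyosin, leiomodin and smoothelin bind or shape those filaments. In the ventricle these proteins are best known from the smooth muscle of coronary arteries and arterioles, and some of them are also made by pericytes and activated fibroblasts. Many of the genes carry a CArG box, the sequence bound by serum response factor, which recruits the coactivator myocardin (Myocd). Myocardin is also made by cardiomyocytes, where it acts with the same factor.

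Promoters of 300 bases, 250 before and 50 after the RefSeq transcription start on GRCm38.p6, were at hand for 7 of the 10 genes (Myl9, Acta2, Cnn1, Smtn, Mylk, Lmod1 and Tpm2), and both strands were searched for the CArG box, which is CC, then 6 letters that are A or T, then GG. An exact box was found in Myl9. When 1 of the 6 central letters was allowed to be G or C, a rule chosen after the sequences were seen, Myl9 had 2 boxes and Acta2 had 2. The other 5 promoters held neither form in this window. Among all 32851 RefSeq mouse promoters of this length, 1.63% held an exact box and 9.98% an exact or 1-letter-off box. The windows are shown because they hold the exact and the 1-letter-off boxes found in promoters of the members, with the 10 letters of the box in capitals, 5′ to 3′ on the strand of the gene.
Myl9, chr2:156775293-156775322, plus strand, exact box at -161 to -152 from the start: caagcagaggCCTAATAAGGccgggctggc
Myl9, chr2:156775355-156775384, plus strand, 1 letter off, at -99 to -90 from the start: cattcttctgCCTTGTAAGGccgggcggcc
Acta2, chr19:34255438-34255467, minus strand, 1 letter off, at -84 to -75 from the start: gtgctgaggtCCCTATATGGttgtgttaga
Acta2, chr19:34255388-34255417, minus strand, 1 letter off, at -34 to -25 from the start: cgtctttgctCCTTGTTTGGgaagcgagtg
In the GENCODE M21 annotation the Myl9 windows lie upstream of the gene, and the Acta2 windows lie in the first exon of its longer transcript. A match of letters does not show that a factor binds there.

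Total counts were 69660232 to 92251443 per mouse, so that 3 counts correspond to 0.0325 to 0.0431 CPM before TMM scaling, counting error only. CPM are counts scaled to a common library size, after TMM normalisation. A gene was tested when its average log2 CPM over the 11 mice was at least 1, which kept 11319 genes and 8 of the 10 members. Cnn1, with 30 to 203 estimated counts per mouse, and Lmod1, with 95 to 296, fell below it. Tests were edgeR's quasi-likelihood test over all 11 mice, with Benjamini-Hochberg adjustment over the 11319 genes, and a call is an adjusted p under 0.05. Mitochondrial genes held 39.4% and 41.2% of counts in the WT VEH mice, 44.96% to 46.6% in WT JZL184 mice, 43.5% to 44.7% in CD VEH mice and 36.4% to 40.2% in CD JZL184 mice. That share, like most members, was higher in WT JZL184 and CD VEH. In a fit without the mitochondrial genes, each call of the 8 tested members in the 6 comparisons described here stayed on its side of the threshold, and Lmod1, which then passed the filter, added a call in 3 of them.

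Among the members, levels per kb of transcript spanned a wide range, and the 2 highest genes were the same in all groups. In WT VEH hearts the mean level was 57.4 CPM per kb for Smtn and 41.2 for Acta2, followed by Myl9 (16.5), Myocd (15.3), Tagln (11.2), Mylk (8.01), Tpm2 (6.60) and Myh11 (2.60). Cnn1, at 0.691 CPM per kb, and Lmod1, at 0.336, were the lowest in WT VEH and in each of the other groups. Acta2 came first only in WT JZL184 hearts, with 52.2 CPM per kb against 41.1 for Smtn. Myocd held rank 4 in WT VEH and CD JZL184, rank 6 in CD VEH and rank 7 in WT JZL184. Lengths were the mean over annotated transcripts. With the longest transcript instead, Smtn (29.2 CPM per kb over all mice) and Acta2 (27.8) were still the highest, while Cnn1 (0.455) fell below Lmod1 (0.497) and Mylk went from 9.63 to 2.89.

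**Figure D1:**
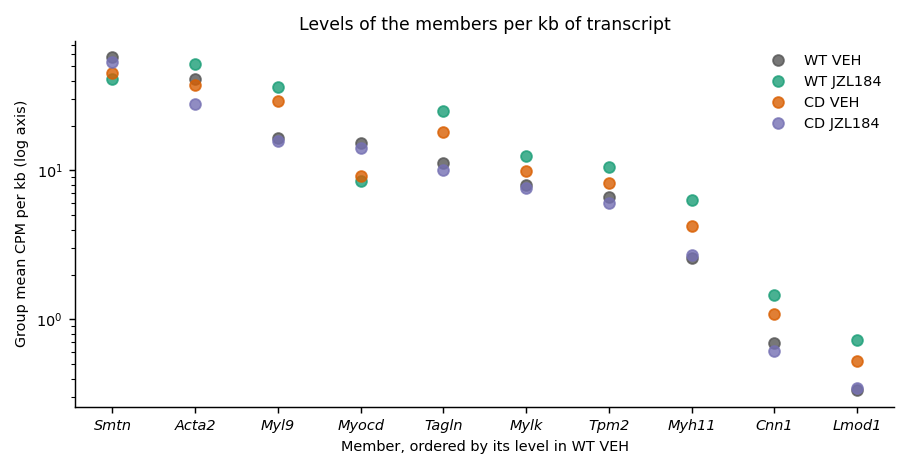
Mean level of each member in CPM per kb of mean transcript length (log axis) in each of the 4 groups, ordered by the level in WT VEH. Smtn and Acta2 are highest and Cnn1 and Lmod1 lowest in each group, and Myocd is the member whose place in the order changes most, from 15.3 in WT VEH to 8.45 in WT JZL184.

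Myocd (chr11:65176561-65269989, minus strand), the coactivator, was lower in CD VEH and WT JZL184 hearts than in WT VEH and CD JZL184 hearts. Its level was 45.4 and 42.0 CPM in the WT VEH mice C and D. In WT JZL184 mice A, B and D it was 26.3, 19.98 and 26.2 CPM, and in CD VEH mice A, C and E 24.8, 26.5 and 26.8 CPM. The CD JZL184 mice A, C and E had 39.4, 38.4 and 43.5 CPM. All 6 hearts of WT JZL184 and CD VEH thus lay below all 5 hearts of the other groups, while WT JZL184 overlapped CD VEH and CD JZL184 overlapped WT VEH. CD VEH hearts had 0.597 times the WT VEH level (log2 fold change -0.745 ± 0.11 (SE), adjusted p = 0.00227). JZL184 was followed by 0.554 times the vehicle level in WT mice (-0.85 ± 0.11, adjusted p = 0.00124) and by 1.55 times the vehicle level in CD mice (0.63 ± 0.10, adjusted p = 0.00235). No alternative setting ended any of these calls.

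Myh11 (chr16:14194535-14291372, minus strand), the smooth muscle myosin heavy chain, moved the other way. It had 15.1 and 12.1 CPM in WT VEH mice C and D, and 41.7, 32.9 and 24.7 CPM in WT JZL184 mice A, B and D. In CD VEH mice A, C and E it was 22.9, 25.9 and 17.6 CPM, and in CD JZL184 mice A, C and E 15.4, 14.1 and 12.7 CPM. Every WT JZL184 and CD VEH heart was above every WT VEH and CD JZL184 heart, and the ranges overlapped within each of those pairs. Myh11 rose 2.44-fold with JZL184 in WT mice (log2 1.28 ± 0.21, adjusted p = 0.00297). In CD VEH hearts it was 1.63-fold the WT VEH level (0.70 ± 0.21, adjusted p = 0.0265), and after JZL184 the CD level was 0.637 times that of CD VEH (-0.65 ± 0.18, adjusted p = 0.0187). The genotype call was lost without CD VEH mouse A or C or WT VEH mouse C or D (adjusted p = 0.0683, 0.0677, 0.0759 and 0.185), and the call of JZL184 in CD mice without CD JZL184 mouse E or CD VEH mouse A or C (adjusted p = 0.0717, 0.0601 and 0.062).

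Myl9 (chr2:156775420-156781658, plus strand) codes for the regulatory light chain that the kinase phosphorylates. It was at 10.95 and 9.51 CPM in WT VEH mice C and D, 26.4, 23.0 and 18.2 CPM in WT JZL184 mice A, B and D, 20.6, 17.8 and 16.2 CPM in CD VEH mice A, C and E, and 10.1, 10.3 and 8.999 CPM in CD JZL184 mice A, C and E. Levels in WT JZL184 and CD VEH overlapped each other and not the remaining groups. Myl9 rose 2.20-fold with JZL184 in WT mice (log2 1.14 ± 0.15, adjusted p = 0.00135) and was 1.78-fold higher in CD VEH than in WT VEH (0.83 ± 0.15, adjusted p = 0.0041). JZL184 in CD mice brought 0.539 times the vehicle level (-0.89 ± 0.13, adjusted p = 0.00235). These calls were kept in each alternative with the threshold at 0.05 and also at 0.01.

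Mylk (chr16:34745210-35002420, plus strand), the kinase itself, had smaller fold changes than Myh11 and Myl9 in each of 3 comparisons. Its levels were 19.9 and 17.6 CPM in WT VEH mice C and D, and 31.4, 30.2 and 26.4 CPM in WT JZL184 mice A, B and D. CD VEH mice A, C and E had 23.0, 24.99 and 21.7 CPM, and CD JZL184 mice A, C and E had 18.1, 17.6 and 17.4 CPM. Here the WT JZL184 hearts were also all above the CD VEH hearts, a difference that was not tested. Mylk rose 1.56-fold with JZL184 in WT mice (log2 0.64 ± 0.09, adjusted p = 0.0017), was 1.24-fold higher in CD VEH than in WT VEH (0.31 ± 0.09, adjusted p = 0.0243), and fell to 0.763 times the vehicle level with JZL184 in CD mice (-0.39 ± 0.08, adjusted p = 0.00498). The genotype call was lost without CD VEH mouse A or C or WT VEH mouse C or D (adjusted p = 0.0563, 0.0598, 0.0641 and 0.194).

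Tagln (chr9:45929619-45936058, minus strand) codes for transgelin, an actin-binding protein used as an early marker of smooth muscle. It had 12.5 and 9.20 CPM in WT VEH mice C and D, 29.4, 25.6 and 17.2 CPM in WT JZL184 mice A, B and D, 18.3, 19.0 and 15.6 CPM in CD VEH mice A, C and E, and 9.91, 11.01 and 8.41 CPM in CD JZL184 mice A, C and E. The 6 hearts of WT JZL184 and CD VEH again lay above the other 5. Tagln rose 2.22-fold with JZL184 in WT mice (log2 1.15 ± 0.21, adjusted p = 0.00407). It was 1.63-fold higher in CD VEH than in WT VEH (0.70 ± 0.21, adjusted p = 0.0252) and fell to 0.555 times the vehicle level with JZL184 in CD mice (-0.85 ± 0.18, adjusted p = 0.006). The genotype call was lost without CD VEH mouse A or C or WT VEH mouse C or D (adjusted p = 0.0653, 0.0543, 0.061 and 0.199) and with an offset for transcript length (adjusted p = 0.0634). Of the 31-base words of Tagln transcripts, 62.2% also occur in transcripts of another M21 gene, mostly Gm48529 (58.2%). Gm48529 is not among the genes of the heart counts, and whether its absence changed the count of Tagln was not tested.

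Tpm2 (chr4:43514711-43523765, minus strand), beta-tropomyosin, lies along the actin filament. Its levels were 9.14 and 7.85 CPM in WT VEH mice C and D, 14.1, 15.1 and 11.5 CPM in WT JZL184 mice A, B and D, 11.5, 11.4 and 8.87 CPM in CD VEH mice A, C and E, and 7.38, 7.82 and 7.99 CPM in CD JZL184 mice A, C and E. CD VEH mouse E lay between the WT VEH mice, so these groups overlapped. Tpm2 rose 1.60-fold with JZL184 in WT mice (log2 0.68 ± 0.14, adjusted p = 0.00608) and fell to 0.731 times the vehicle level in CD mice (-0.45 ± 0.12, adjusted p = 0.015). Its genotype difference under vehicle was 0.32 ± 0.14 (adjusted p = 0.0922), and passed the test without CD VEH mouse E (0.43, adjusted p = 0.0377). The WT call of JZL184 was lost without WT VEH mouse D (adjusted p = 0.062), and the CD call without CD JZL184 mouse A or CD VEH mouse A (adjusted p = 0.052 and 0.0643).

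Acta2 (chr19:34241090-34255590, minus strand), smooth muscle alpha-actin, passed the test neither for genotype under vehicle nor for JZL184 within a genotype. It had 50.2 and 67.7 CPM in WT VEH mice C and D, 85.4, 61.1 and 77.5 CPM in WT JZL184 mice A, B and D, 48.8, 44.8 and 66.1 CPM in CD VEH mice A, C and E, and 37.1, 47.5 and 36.1 CPM in CD JZL184 mice A, C and E. WT VEH mouse D was above mouse C for Acta2, whereas mouse C was the higher for 8 of the 10 members, and each of these 3 pairs of groups overlapped. The log2 difference was -0.15 (95% interval -0.56 to 0.27) for CD VEH against WT VEH, 0.34 (-0.08 to 0.76) for JZL184 in WT mice and -0.405 (-0.78 to -0.03) for JZL184 in CD mice, with adjusted p = 0.58, 0.197 and 0.088. The last of these passed the test in DESeq2 (adjusted p = 0.0473) and without CD JZL184 mouse C (adjusted p = 0.0497). Under JZL184 the CD hearts had 0.539 times the Acta2 level of the WT hearts (-0.89 ± 0.17, adjusted p = 0.00283).

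Smtn (chr11:3517523-3540612, minus strand) codes for smoothelin, an actin-associated protein known from contractile smooth muscle, and followed Myocd rather than the myosin genes. Both WT VEH mice had 117 CPM, WT JZL184 mice A, B and D had 78.4, 83.8 and 89.7 CPM, CD VEH mice A, C and E had 88.8, 98.2 and 87.7 CPM, and CD JZL184 mice A, C and E had 115, 99.5 and 112 CPM. CD JZL184 mouse C came closest to the CD VEH range. Smtn was 0.717 times the vehicle level with JZL184 in WT mice (log2 -0.48 ± 0.08, adjusted p = 0.00348) and 0.782 times the WT VEH level in CD VEH hearts (-0.355 ± 0.08, adjusted p = 0.00995). It rose 1.19-fold with JZL184 in CD mice (0.25 ± 0.07, adjusted p = 0.0247). The first of these calls was kept in each alternative, the genotype call was lost without either WT VEH mouse (adjusted p = 0.0719 and 0.0585), and the CD call was lost without CD JZL184 mouse A or E or CD VEH mouse A or E (adjusted p = 0.0924, 0.0875, 0.0857 and 0.0916). Words shared with the M21 gene Gm11946, which is not among the genes of the heart counts, made up 12.0% of the words of Smtn.

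Cnn1 (chr9:22099216-22109630, plus strand), calponin 1, and Lmod1 (chr1:135324807-135368065, plus strand), leiomodin 1, lay below the filter on low counts. Lmod1 had 1.38 and 1.28 CPM in WT VEH mice C and D, 3.86, 2.67 and 2.09 CPM in WT JZL184 mice A, B and D, 2.13, 2.34 and 1.73 CPM in CD VEH mice A, C and E, and 1.35, 1.59 and 1.18 CPM in CD JZL184 mice A, C and E. All WT JZL184 and CD VEH hearts were above the others for Lmod1. Cnn1 had 0.884 and 0.633 CPM in WT VEH, 2.64, 1.45 and 0.727 CPM in WT JZL184, 1.12, 1.497 and 0.963 CPM in CD VEH, and 0.749, 0.918 and 0.345 CPM in CD JZL184, in the same order of mice, so that WT JZL184 mouse D lay within the WT VEH range. In a fit without the filter on low counts, JZL184 in WT mice raised Lmod1 (log2 1.11 ± 0.24, adjusted p = 0.00681), while Cnn1 was at 1.08 ± 0.45 (adjusted p = 0.119). For CD VEH against WT VEH that fit gave 0.65 ± 0.24 for Lmod1 (adjusted p = 0.0756) and 0.67 ± 0.45 for Cnn1 (adjusted p = 0.353). JZL184 in CD mice gave -0.58 ± 0.21 for Lmod1 (adjusted p = 0.0635) and -0.82 ± 0.40 for Cnn1 (adjusted p = 0.177). Lmod1 and Cnn1 were lower in CD JZL184 than in WT JZL184 (adjusted p = 0.00225 and 0.0339). The JZL184 effect in CD mice minus that in WT mice was also called for Lmod1 (-1.69, adjusted p = 0.000867) and Cnn1 (-1.90, adjusted p = 0.0242).

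**Figure D2:**
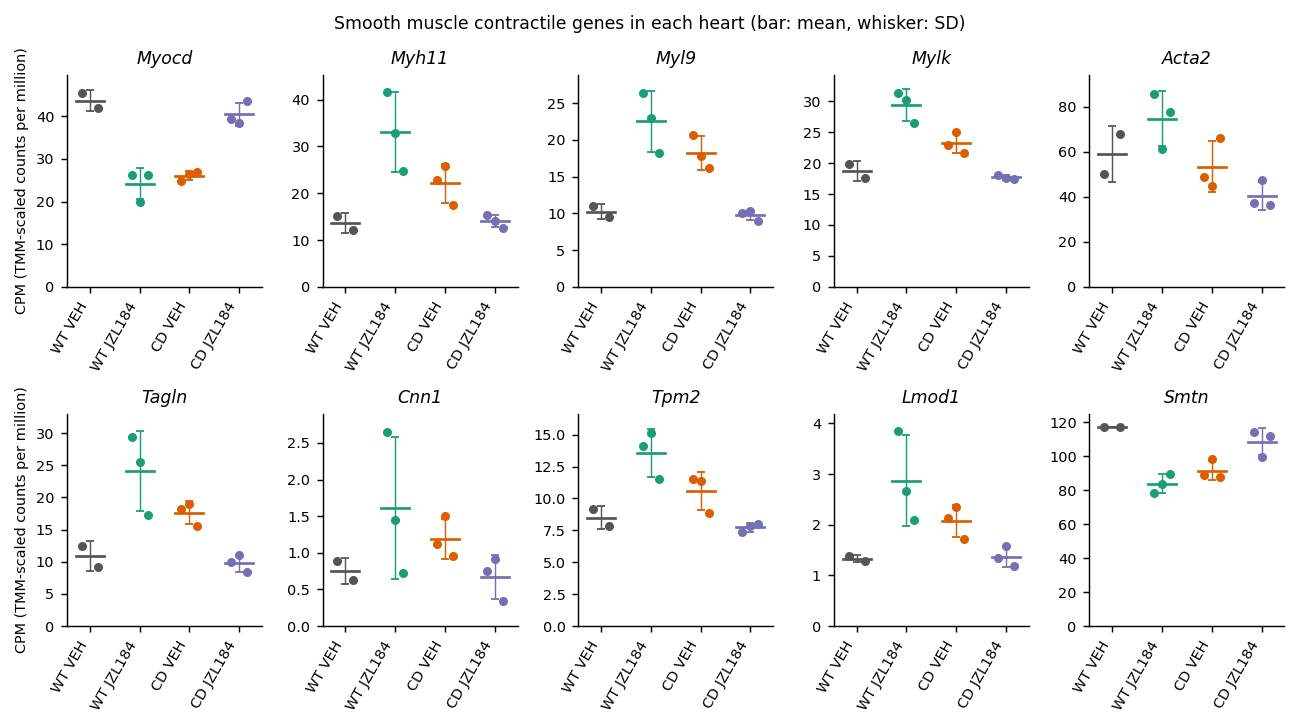
Level of each of the 10 members in CPM (linear axes from 0), with 1 point per mouse, the group mean as a bar and the SD as a whisker. Myh11, Myl9, Mylk, Tagln and Lmod1 are higher in all WT JZL184 and CD VEH hearts than in all others, Myocd and Smtn are lower, and the groups of Acta2 overlap under vehicle.

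Such separation was not rare among all genes. Of the 11319 genes tested, 14.4% were higher in each of the 6 WT JZL184 and CD VEH hearts than in each of the other 5 and 13.8% were lower in each, beside 5 and 2 of the 10 members, a grouping of hearts made after the values were seen. For CD VEH against WT VEH alone, 32.5% of genes were higher in every CD VEH heart and 31.5% lower. For JZL184 these shares were 27.4% and 27.3% in WT mice and 27.2% and 27.4% in CD mice.

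Genotype under vehicle was the first question. Of the 8 members tested, 4 were higher in CD VEH than in WT VEH (Myh11, Myl9, Mylk and Tagln) and 2 were lower (Myocd and Smtn), against 15.0% higher and 15.4% lower among all genes tested. Their median log2 fold change was 0.31, beside 0.01 over all genes. Without either WT VEH mouse, which leaves 1 mouse in that group that is assumed to vary like the others, 2 members were called, and without CD VEH mouse A or C 3 were.

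The second question was JZL184 within each genotype. In WT mice 5 members rose (Myh11, Myl9, Mylk, Tagln and Tpm2) and 2 fell (Myocd and Smtn), against 15.4% and 14.0% of all genes, with a median log2 fold change of 0.66 beside -0.003. In CD mice 2 rose (Myocd and Smtn) and 5 fell (Myh11, Myl9, Mylk, Tagln and Tpm2), against 16.8% and 17.0% of all genes, with a median of -0.43 beside -0.002. Without CD VEH mouse A, 4 members were called in CD mice. The comparison in WT mice shares its WT VEH mice with the genotype comparison, and the comparison in CD mice shares the CD VEH mice with it, so the directions are not independent of one another.

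**Figure D3:**
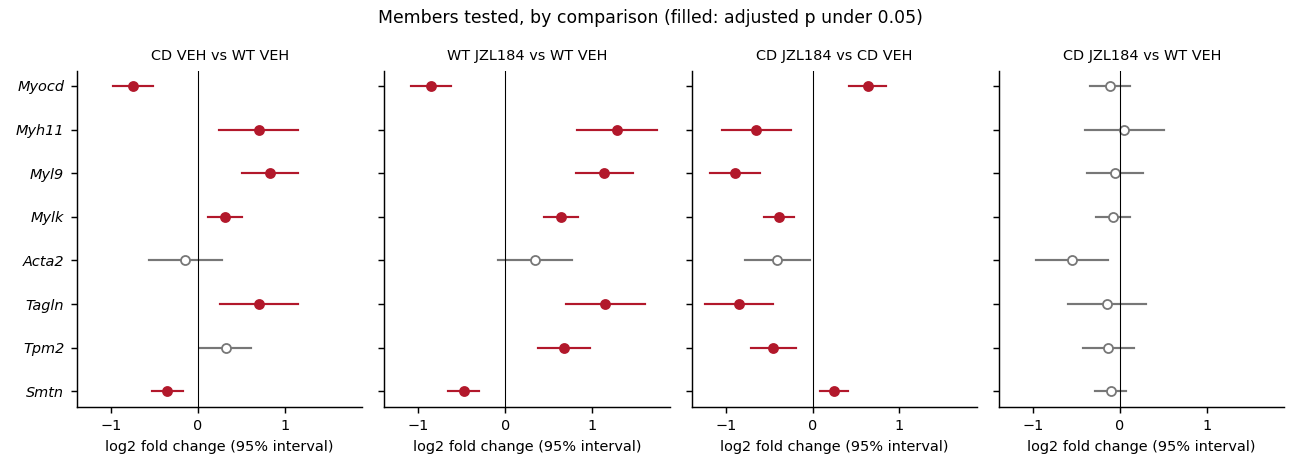
Log2 fold change of the 8 tested members with its 95% interval in 4 comparisons, with filled red points for an adjusted p under 0.05 and open grey points otherwise. Myh11, Myl9, Mylk, Tagln and Tpm2 lie right of 0 for JZL184 in WT mice and left of 0 for JZL184 in CD mice, Myocd and Smtn do the opposite, and no point is filled for CD JZL184 against WT VEH.

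The effect of JZL184 differed between genotypes for all 8 members tested when the difference itself was tested, with 6 negative and 2 positive, against 26.2% and 25.3% of all genes. The difference, as the log2 effect in CD mice minus that in WT mice, was -2.03 ± 0.20 for Myl9 (adjusted p = 8.95e-05), -2.00 ± 0.28 for Tagln and -1.94 ± 0.28 for Myh11. For Tpm2 it was -1.13 ± 0.18, for Mylk -1.03 ± 0.12 and for Acta2 -0.75 ± 0.26 (adjusted p = 0.0307). It was positive for Myocd, at 1.49 ± 0.14 (adjusted p = 8.95e-05), and for Smtn, at 0.73 ± 0.11. The Acta2 call was lost with an offset for transcript length (adjusted p = 0.0504) and without WT VEH mouse C, CD VEH mouse E, CD JZL184 mouse A or E, or WT JZL184 mouse A or D (adjusted p from 0.0597 to 0.151). Between treated mice of both genotypes, CD JZL184 against WT JZL184, the same 6 members were lower and Myocd and Smtn higher in CD mice, against 20.1% and 18.2% of all genes. In that comparison Tagln was at 0.407, Myh11 at 0.426 and Myl9 at 0.436 times the WT JZL184 level, and Myocd at 1.67 times.

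CD JZL184 hearts were then set against WT VEH hearts. No member passed the test in edgeR or in DESeq2, where 0.0442% of all genes were higher and 0.141% lower in edgeR, and 1 of the 8 members had an unadjusted p under 0.05 with either tool, against 9.36% of all genes in edgeR. That member was Acta2, at 0.683 times the WT VEH level (log2 -0.55, 95% interval -0.97 to -0.13, adjusted p = 0.401). The intervals of the others bound what could have been missed: -0.40 to 0.50 for Myh11, -0.59 to 0.30 for Tagln, -0.38 to 0.26 for Myl9, -0.43 to 0.16 for Tpm2, -0.28 to 0.11 for Mylk, -0.34 to 0.12 for Myocd and -0.29 to 0.07 for Smtn. A p that misses the threshold does not show that the groups were alike.

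Other proteins of smooth muscle and stress fibres, a list of 23 genes of which 21 were tested, held genes called higher and genes called lower. For genotype under vehicle 10 rose and 3 fell, against 15.0% and 15.4% of all genes. With JZL184 in WT mice 12 rose and 3 fell, against 15.4% and 14.0%, and with JZL184 in CD mice 3 rose and 12 fell, against 16.8% and 17.0%. The medians were 0.19, 0.29 and -0.305 on the log2 scale, beside 0.01, -0.003 and -0.002 over all genes. The 3 genes in the smaller direction of each comparison were thus near the share of all genes. Myl6, the essential light chain of smooth muscle and non-muscle myosin, was at 98.5 ± 0.24 CPM (SD, n = 2) in WT VEH, 150 ± 15.0 (n = 3) in WT JZL184, 153 ± 17.1 (n = 3) in CD VEH and 92.2 ± 6.02 (n = 3) in CD JZL184. Svil, supervillin, which ties actin and myosin to the membrane, did the reverse, with 261 ± 15.5, 186 ± 19.8, 196 ± 12.1 and 262 ± 9.22 CPM in the same order. The members of the list that changed like Svil in these 3 comparisons were Synpo2 and Vcl. Tpm1 and Myl12a, the most abundant of the list, passed none of these 3 tests. Without WT VEH mouse C or D, 1 and 4 genes of the list were called in CD VEH against WT VEH, and 5 without either for JZL184 in WT mice.

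Regulators of smooth muscle contraction, 23 genes of which 20 were tested, were divided. In CD VEH against WT VEH 6 rose and 5 fell, with JZL184 in WT mice 6 rose and 6 fell, and with JZL184 in CD mice 5 rose and 6 fell, against the same shares of all genes, with medians of 0.02, -0.035 and 0.04 on the log2 scale beside 0.01, -0.003 and -0.002 over all genes. Ppp1r12b, a targeting subunit of myosin phosphatase, fell in CD VEH (log2 -0.42 ± 0.10, adjusted p = 0.0121) and with JZL184 in WT mice (-0.59 ± 0.10, adjusted p = 0.00363) and rose with JZL184 in CD mice (0.545 ± 0.09, adjusted p = 0.00268). Gucy1a1 and Gucy1b1, the subunits of the nitric oxide receptor guanylate cyclase that relaxes smooth muscle, rose in the former 2 comparisons and fell in the latter. Rhoa, the GTPase that holds myosin phosphatase in check, passed none of the 3 tests. The number called fell to 2 without WT VEH mouse C and 5 without WT VEH mouse D for genotype, to 4 and 5 without the same mice for JZL184 in WT mice, to 7 in them without WT JZL184 mouse B, and in CD mice to 4 without CD JZL184 mouse A and 5 without CD JZL184 mouse E or CD VEH mouse A or E.

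Transcriptional regulators of smooth muscle genes, 11 genes and all tested, gave 5 higher and 1 lower in CD VEH, 4 higher and 0 lower with JZL184 in WT mice, and 1 higher and 4 lower with JZL184 in CD mice, against the shares of all genes given for the other proteins of smooth muscle. With 11 genes, a single call is under those shares. The medians were 0.22, 0.23 and -0.07 on the log2 scale. Srf, serum response factor, the partner of myocardin at the CArG box, was at 78.3 ± 8.46 CPM in WT VEH, 69.5 ± 6.77 in WT JZL184, 69.5 ± 3.24 in CD VEH and 80.8 ± 6.04 in CD JZL184 and passed none of these tests. Klf4, a repressor of smooth muscle genes, was 0.44 ± 0.10 higher on the log2 scale in CD VEH than in WT VEH (adjusted p = 0.01) and fell with JZL184 in CD mice (-0.63 ± 0.09, adjusted p = 0.00228). Notch3, the receptor known from vascular smooth muscle and pericytes, rose with JZL184 in WT mice (0.44 ± 0.08, adjusted p = 0.00507). Without WT VEH mouse C, 1 gene of the list was called for genotype, and without CD VEH mouse A 3 were for JZL184 in CD mice.

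Marker lists of other cells of the vessel wall and of the ventricle were read in the same comparisons, in which 15.0% of all genes were higher and 15.4% lower for genotype, 15.4% and 14.0% for JZL184 in WT mice, and 16.8% and 17.0% for JZL184 in CD mice. Endothelial markers rose in 10 of 12 tested for CD VEH against WT VEH and 12 of 12 for JZL184 in WT mice, and fell in 11 of 12 for JZL184 in CD mice. Pericyte markers gave 7 higher and 1 lower of 10, then 9 higher, then 1 higher and 6 lower. Macrophage markers gave 7 of 10 higher, 10 of 10 higher and 10 of 10 lower. Rgs5, a marker of cardiac pericytes, had 451 ± 8.40 CPM in WT VEH, 666 ± 40.8 in WT JZL184, 682 ± 67.8 in CD VEH and 452 ± 4.34 in CD JZL184. Fibroblast markers rose in 4 and 5 of 10 and fell in 4 of 10 in the same 3 comparisons. Markers of activated fibroblasts, of which 5 of 8 were tested, gave 0 called for genotype in edgeR and in DESeq2 (1 with an unadjusted p under 0.05), 4 higher with JZL184 in WT mice, and 1 lower, Postn, with JZL184 in CD mice. Cardiomyocyte markers leaned the other way, with 1 higher and 4 lower of 12 for genotype, 4 lower for JZL184 in WT mice, and 4 higher and 1 lower for JZL184 in CD mice. Myh6, the main ventricular myosin heavy chain of adult mice, was at 15200 ± 302 CPM in WT VEH, 10800 ± 2190 in WT JZL184, 11100 ± 1580 in CD VEH and 15200 ± 691 in CD JZL184. Log2 fold changes of the cardiomyocyte markers ran from -1.065 to 0.876 for genotype, so they did not all move like Myh6. In CD JZL184 against WT VEH no marker of these lists was called by edgeR, and 1 endothelial marker had an unadjusted p under 0.05. DESeq2 also called none, and there 2 pericyte, 1 endothelial and 1 cardiomyocyte markers had an unadjusted p under 0.05. Without WT VEH mouse C the genotype counts were 5 endothelial, 5 pericyte, 0 macrophage, 1 fibroblast and 0 cardiomyocyte markers, and without WT VEH mouse D they were 9, 5, 0, 1 and 1. The macrophage count for genotype was 2 without CD VEH mouse A and 1 without CD VEH mouse E. The pericyte count for genotype was 5 without CD VEH mouse A, and the fibroblast count was 2 without CD VEH mouse A or E. The cardiomyocyte count for genotype, 5 over all mice, was 2 without any 1 of the CD JZL184 mice, 1 without CD VEH mouse A, 3 without CD VEH mouse E or WT JZL184 mouse D and 8 without WT JZL184 mouse A or B, and DESeq2 called 9. For JZL184 in WT mice they were 10, 6, 0, 3 and 0 without WT VEH mouse C and 12, 6, 2, 3 and 0 without WT VEH mouse D, and no activated fibroblast marker was called without either (1 without WT JZL184 mouse B). For JZL184 in CD mice 5 macrophage and 1 cardiomyocyte markers were called without CD VEH mouse E, and 6 and 3 without CD JZL184 mouse A. The cardiomyocyte count in CD mice was also 3 without CD JZL184 mouse C and 2 without CD JZL184 mouse E or CD VEH mouse A. In WT mice it was 2 without WT JZL184 mouse B. The call of Postn alone among activated fibroblast markers rests on single mice, since 0 were called without CD JZL184 mouse A or E or CD VEH mouse E, 2 without CD JZL184 mouse C or WT JZL184 mouse B, 3 without CD VEH mouse C, and 2 by DESeq2.

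In RNA from whole ventricle, fewer cells of a type and less RNA per cell cannot be told apart. The summed levels give the size of these shifts. For the 7 members other than Smtn, Myocd and Acta2, a subset chosen after the values were seen and not tested, the sum was 58.2 and 69.8 CPM in WT VEH, between 101 and 150 in WT JZL184, 82.6 to 103 in CD VEH and 57.0 to 63.4 in CD JZL184. The sum of all 10 members, most of it from Smtn and Acta2, had another order, with 282 and 285 CPM in WT VEH, between 294 and 340 in WT JZL184, 262 to 272 in CD VEH and 248 to 254 in CD JZL184, so that CD VEH lay below WT VEH in it. Pericyte markers summed to 901 and 909, 1130 to 1180, 1030 to 1190 and 861 to 906 CPM, and endothelial markers to 855 and 868, 1310 to 1400, 1130 to 1230 and 828 to 951 CPM in the same order. Macrophage markers summed to 318 and 334, 419 to 706, 421 to 548 and 285 to 325 CPM. The cardiomyocyte sum was 54500 and 54800, 39800 to 51200, 45900 to 49700 and 50800 to 53700 CPM. As a share of the pericyte sum, the 7 members were at 6.46% and 7.68% in WT VEH, between 8.95% and 13.3% in WT JZL184, 8.001% to 9.62% in CD VEH and 6.29% to 7.32% in CD JZL184, so that the shares of WT JZL184 and CD VEH hearts were above all others. As a share of the endothelial sum they were at 6.71% and 8.16%, 7.49% to 11.5%, 6.82% to 9.13% and 6.30% to 7.61%, and these ranges overlapped. As a share of the macrophage sum they were at 17.5% and 22.0%, between 17.3% and 35.7%, 15.1% to 24.5% and 19.1% to 22.2%, and these ranges overlapped too. As a share of the fibroblast sum they were at 3.41% and 4.14%, between 4.62% and 7.91%, 4.04% to 5.73% and 3.37% to 4.22%, and the CD VEH range overlapped that of WT VEH and of CD JZL184. Beside the cardiomyocyte sum, the 7 members were at 0.1062% and 0.1282%, 0.217% to 0.3286%, 0.1769% to 0.2167% and 0.1065% to 0.1248%. All WT JZL184 and CD VEH hearts were above all others in this share. The part of cell composition in the members' changes was not tested. The ventricle label was checked by atrial markers, of which Bmp10 had under 3 counts in each mouse, and the 5 atrial genes together summed to 171 and 194 CPM in WT VEH, between 111 and 221 in WT JZL184, 50.5 to 148 in CD VEH and 74.2 to 125 in CD JZL184, so that both WT VEH hearts lay above all CD hearts. Nppa, atrial natriuretic peptide and the 1 atrial gene tested, was called in none of the 6 comparisons by edgeR or DESeq2, and had an unadjusted p under 0.05 in edgeR, and not in DESeq2, for CD VEH against WT VEH (log2 -0.91) and for CD JZL184 against WT VEH (-0.83). The part of atrial tissue in the members' changes was not tested.

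**Figure D4:**
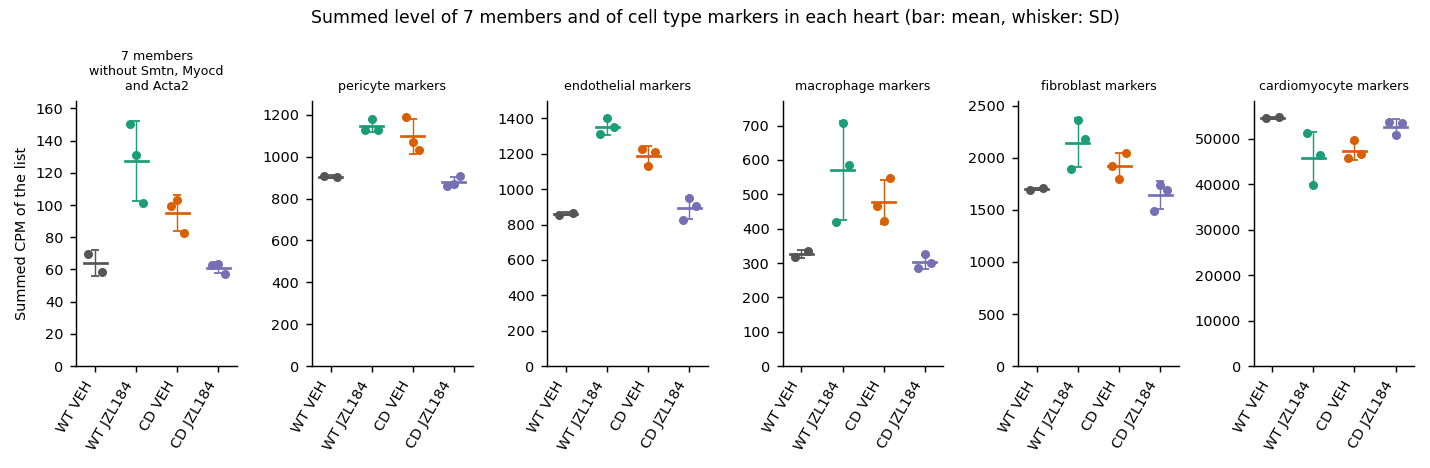
Summed CPM per mouse (linear axes from 0; bar, mean; whisker, SD) of 7 members and of 5 lists of cell type markers in the 4 groups. The sum of 7 members (without Smtn, Myocd and Acta2, left out after their values were seen) and the pericyte, endothelial, macrophage and fibroblast sums are higher in WT JZL184 and CD VEH than in WT VEH and CD JZL184. The mean cardiomyocyte sum is lower in WT JZL184 and CD VEH, but WT JZL184 mouse A (51200 CPM) lies above CD JZL184 mouse C (50800 CPM).

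Close relatives of the members in other cells were read beside them. Myh9, a non-muscle myosin heavy chain, was 0.31 ± 0.08 higher in CD VEH than in WT VEH (log2, adjusted p = 0.0148), rose with JZL184 in WT mice (0.40 ± 0.08, adjusted p = 0.00581) and fell with it in CD mice (-0.35 ± 0.07, adjusted p = 0.005), whereas Myh10, another non-muscle heavy chain, passed none of the 3 tests. Of the non-muscle relatives of the thin filament and light chain members, Tagln2, Tpm3, Tpm4, Cnn3 and Myl12b rose in the first 2 comparisons and fell in the third. Cnn2 was not called for genotype (0.13, adjusted p = 0.235), rose with JZL184 in WT mice (0.29, adjusted p = 0.0182) and fell with it in CD mice (-0.32, adjusted p = 0.00658), and Myl12a passed none of the 3 tests. Lmod2, the leiomodin of cardiac muscle, was lower in CD VEH than in WT VEH (-0.69 ± 0.14, adjusted p = 0.00665). Acta1, skeletal alpha-actin, was at 215 ± 15.4 CPM in WT VEH, 178 ± 17.4 in WT JZL184, 45.6 ± 20.3 in CD VEH and 50.4 ± 21.9 in CD JZL184. It was lower in CD VEH than in WT VEH (log2 -2.24 ± 0.37, adjusted p = 0.0033). The test was not passed for JZL184 in WT mice (-0.27, 95% interval -1.07 to 0.52, adjusted p = 0.59), although both WT VEH hearts lay above all WT JZL184 hearts, nor for JZL184 in CD mice (0.145, -0.58 to 0.87, adjusted p = 0.756). Actg2, the enteric smooth muscle actin, was at 0.186 to 0.450 CPM in the group means and was not tested. Of the 31-base words, 1.39% of those of Acta2, 0.905% of Myh11, 0.412% of Myl9 and 0.299% of Tpm2 occurred in any other M21 gene. For Acta2 these were led by Gm6375, Actg-ps1 and Actg1. The shares are not weighted by level. Tpm2, at a mean of 10.2 CPM over all mice, shared its words with Tpm1, at 5810 CPM. How many reads could be assigned to the wrong gene was not tested.

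Genes close to the mean pattern of the members were sought among 11199 tested genes outside the lists, by the root mean square difference in centred log2 CPM from the mean of the 8 tested members over the 11 mice. That mean pools Myocd and Smtn with members that moved the other way. A gene close to it need not be like any single member. This is a description, with no test. The closest were Kitl, which codes for stem cell factor (0.0778 log2 units), Flt1, a receptor for vascular endothelial growth factor (0.0882), Angptl1 (0.0954), Dennd3 (0.0962), Pdgfd, a platelet-derived growth factor (0.0963), mt-Co2, a mitochondrial cytochrome oxidase subunit (0.103), Clk1 (0.106) and Ceacam1 (0.107). Kitl was at 65.7 ± 0.22 CPM in WT VEH, 88.9 ± 6.00 in WT JZL184, 74.8 ± 4.18 in CD VEH and 57.1 ± 0.79 in CD JZL184. The member mean that they were compared with was 4.57 and 4.44 in WT VEH, between 4.83 and 5.15 in WT JZL184, 4.62 to 4.76 in CD VEH and 4.31 to 4.41 in CD JZL184, on the log2 CPM scale.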

How the data were processed

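The authors quantified reads with Salmon 0.7.2, using the GRCm38 transcripts of Ensembl release 85, and tximport 1.2.0 gave sums per gene. The deposited values are estimated counts, not normalized. Strand settings are not given in the sources used here. Column names give each mouse's group and a letter, which the sample labels lack. Rounded counts were tested with edgeR 4.0.16 in R 4.3.3 (TMM, quasi-likelihood test, group means of all 11 mice, no covariate). The common biological coefficient of variation was 9.13%. Intervals of log2 fold changes are 95% t intervals on the pooled 11.82 degrees of freedom. Log2 CPM had a prior count of 2. Identifiers matched GENCODE M21, used for symbols, positions and lengths, for 22238 of 22608 genes, 16070 with the same version. The steps were tested on simulated data.

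The members and lists were chosen with earlier results of these data known. Named genes are all members, from each list the 4 tested genes of highest mean CPM and those of counts of 5 or fewer, close relatives of the members, and the 8 genes closest to the mean pattern of the members. Some of these are not described, and Gucy1a1, Gucy1b1 and the grouping of 7 members were picked after their values were seen. Alternatives were DESeq2 1.42.0, other scaling factors, other filters, the compared groups alone, a length offset, a threshold of 0.01, runs that each left out a mouse and, added after the data were seen, the column letter as a block. Each mouse is taken as a separate animal. Protein identity between members was planned and not run. The sharing of 31-base transcript words took its place after the data were seen.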

Additional observations from a re-analysis of the deposited data

Results flagged for a closer look

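All 8 tested members had an effect of JZL184 that differed between genotypes by the test of the difference itself in edgeR (adjusted p under 0.05), 6 negative and 2 positive, where 26.2% of all genes were called negative and 25.3% positive. As the log2 effect in CD mice minus that in WT mice, the values were -1.935 for Myh11, -2.001 for Tagln, -2.031 for Myl9, -0.746 for Acta2, -1.035 for Mylk and -1.128 for Tpm2, and 0.726 for Smtn and 1.487 for Myocd. The WT effect rests on 2 vehicle mice. For Acta2, neither of its effects within a genotype passed the test on its own, and the call of the difference was lost in 8 of 20 alternatives. No test asked whether a single heart stood apart in groups of 2 and 3 mice. By order of level, WT JZL184 mouse A was the highest of its group for 8 of the 10 members, CD VEH mouse E the lowest for 8, and WT JZL184 mouse D and CD JZL184 mouse E the lowest for 7 each.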

How the results depend on the processing

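Of 48 results (8 members in 6 comparisons), 32 kept their direction and their side of the threshold in every alternative run, which were 21 for each comparison and 20 for the difference in effect. With an adjusted p under 0.01 in place of 0.05, 3 members were called for CD VEH against WT VEH and 4 for JZL184 in CD mice. Leaving out 1 mouse at a time gave 2 to 7 members called for CD VEH against WT VEH, 4 to 8 for JZL184 in CD mice, 6 to 8 for JZL184 in WT mice, 8 to 9 for CD JZL184 against WT JZL184, 0 for CD JZL184 against WT VEH and 7 to 9 for the difference in effect. The number tested rose from 8 to 9 in some of these. Direction turned only for log2 values that had not passed the test, when 1 mouse was left out and, for Myh11 in CD JZL184 against WT VEH (-0.121), in the fit with letters described next. For Acta2 in CD VEH against WT VEH the values without 1 mouse ran from -0.345 to 0.085. In CD JZL184 against WT VEH they ran from -0.102 to 0.22 for Myh11, from -0.159 to 0.045 for Myl9, from -0.168 to 0.006 for Mylk and from -0.352 to 0.089 for Tagln. The cause was not tested. The mean log2 CPM of the members was 4.651 with a prior count of 2 and 4.65 with 0.5.

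The columns carry no replicate number of the labels, only letters that are in no label and that recur between groups for 10 of the 11 mice. After the data were seen, the letter was tried as a replicate block, which left 3 residual degrees of freedom. Of the 8 pairs of mice with the same letter, 1 had deviations from the group means that correlated over 0.1 (r from -0.253 to 0.315), and 2 mice correlated best with one of their own letter, so the letters were not taken to pair mice. With that replicate block 4 members were called for CD VEH against WT VEH (Mylk and Smtn were not), 7 for JZL184 in each genotype, 8 for CD JZL184 against WT JZL184, 0 for CD JZL184 against WT VEH and 8 for the difference in effect. With 2 or 3 mice in a group, an exact 2-sided permutation test between 2 groups could not reach 0.05 for a single gene. Calls thus rest on the spread pooled over genes and groups. Cnn1 and Lmod1 had the fewest counts of the members, 30 to 203 and 95 to 296 per mouse.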
